A study of Mus musculus with 24 samples.

Results

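The genes described here are the chemokines and chemokine receptors of the mouse kidney, followed through ureter obstruction and its reversal. They are the protein-coding genes named Ccl, Cxcl, Ccr, Cxcr or Ackr with a number, together with Cx3cl1, Cx3cr1, Ccrl2 and Cmklr1. Among the 14785 genes that the deposited table lists, 39 fitted that rule, 28 of them chemokines (18 Ccl genes, 9 Cxcl genes and Cx3cl1) and 11 receptors. The same names match 63 genes of the GENCODE M21 annotation. The other 24, among them the neutrophil receptor genes Cxcr1 and Cxcr2, the B cell pair Cxcl13 and Cxcr5, and Ccr4, Ccr6 and Ackr1, have no row in the table and were not analysed here.

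Bulk RNA sequencing was made of kidneys of male C57/BL6 mice aged 8 weeks, in 6 groups of 4 animals. Unilateral ureter obstruction (UUO) ties off the ureter of one kidney, and reversal reimplants that ureter so that urine can drain again. The groups were sham surgery without ligation (sham), obstruction lasting 2 days (UUO2) or 7 days (UUO7), and 7 days of obstruction followed by 1, 2 or 4 weeks of reversal (R1W, R2W and R4W). The series title names the tissue as kidney cortex, the libraries were polyA selected, and 4 of 10 animals per group were sequenced, chosen in a way not given in the sources used here. No group carried a genetic change, and every reversal animal had also passed through 7 days of obstruction. The title of R4W replicate 2 says 4 weeks and its treatment label says 2 weeks; it was kept by its title.

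Chemokines are small secreted proteins that guide leukocytes along gradients by binding G protein-coupled receptors on those cells. Inflammatory chemokines are switched on by cytokines, injury and pattern-recognition signals, largely through NF-kB and interferon pathways, whereas homeostatic ones such as CXCL12 place cells in healthy tissue. In the obstructed kidney the family is known for drawing in monocytes, macrophages, neutrophils and lymphocytes.

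Many of these genes are neighbours. On GRCm38 (mm10) coordinates as deposited, Ccl2, Ccl7, Ccl12 and Ccl8 lie within 81.2 kb of chromosome 11 (82035571 to 82116799), and Ccl5, Ccl9, Ccl6, Ccl3 and Ccl4 within 139 kb of the same chromosome (83525778 to 83664683). Cxcl5, Cxcl1 and Cxcl2 share 147 kb of chromosome 5 (90759360 to 90905938), and Cxcl9 and Cxcl10 share 27.5 kb further along it (92321347 to 92348889). Ccl22, Cx3cl1 and Ccl17 lie within 66.4 kb of chromosome 8 (94745590 to 94812036). Near-identical genes can share reads: Ccl21a on chromosome 4 and Ccl21c on the unplaced scaffold GL456350.1 are near-identical copies, so the split of reads between them is uncertain.

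Cxcl1, Cxcl2 and Cxcl10 are shown by their promoters because they were among the members highest over sham after 2 days of obstruction, were lower in R4W than in UUO7, and hold a match to the NF-kB motif, so that their having one is no finding. Cxcl17, to which the same description of values applies, is named only. The sequences are the 250 bases before the start site, from RefSeq on GRCm38.p6, each on the strand of its gene. Capitals mark matches to the NF-kB motif and, in Cxcl10, also the first capitals, which match the interferon-stimulated response element (GAAA, any 2 bases, GAAA).
Cxcl1, chr5:90890995-90891244, plus strand: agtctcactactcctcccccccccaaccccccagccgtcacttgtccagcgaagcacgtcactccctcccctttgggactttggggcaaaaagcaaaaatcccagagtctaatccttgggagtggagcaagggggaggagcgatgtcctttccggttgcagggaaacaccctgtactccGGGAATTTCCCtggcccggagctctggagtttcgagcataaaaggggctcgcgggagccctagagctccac
Cxcl2, chr5:90903649-90903898, plus strand: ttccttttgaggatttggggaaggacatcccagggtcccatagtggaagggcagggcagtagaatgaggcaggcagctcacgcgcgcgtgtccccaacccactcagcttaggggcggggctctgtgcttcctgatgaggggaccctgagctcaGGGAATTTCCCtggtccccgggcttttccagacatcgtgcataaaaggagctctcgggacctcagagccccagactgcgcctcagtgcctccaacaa
Cxcl10, chr5:92348890-92349139, minus strand: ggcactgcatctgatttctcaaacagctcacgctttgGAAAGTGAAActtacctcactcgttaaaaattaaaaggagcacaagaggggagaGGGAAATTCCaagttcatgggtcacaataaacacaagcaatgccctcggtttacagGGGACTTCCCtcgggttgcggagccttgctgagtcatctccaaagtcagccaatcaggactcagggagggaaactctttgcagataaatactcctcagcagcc
Both strands were searched, and in Cxcl1 and in Cxcl2 a match on each strand overlaps the other, shifted by 1 base, so that each holds 1 run of capitals. The run begins 71 bases before the start of Cxcl1 and 97 bases before that of Cxcl2. In Cxcl10 the NF-kB matches begin 159 and 103 bases before the start and the interferon element 213 bases before it. A promoter entry was found for 29 of the 39 genes. The NF-kB motif was present in 6 of these (Ccl20, Ccl9, Ccrl2, Cxcl1, Cxcl10 and Cxcl2), and in 4.46% of the 27025 genes with an entry. The interferon element was present in 3 (Ccl19, Cxcl10 and Cxcl14), and in 3.46% of all genes. Such a match describes letters in this window and shows no binding.

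The values are taken to be FPKM, a level per transcript length scaled to the size of the library. Values are listed in the order of replicates 1 to 4, and means are given ± SD with n = 4 animals. Whole-fragment steps in low values implied between 25300000 and 35400000 fragments in 20 libraries, where 1 fragment on a transcript of 1 kb is worth 0.033 to 0.047 FPKM. In the UUO2 group the steps were too weak to give a depth (0 of 4), so its depth is not known. On steps lay 35.5% to 49.3% of the low values in UUO2, above the share by chance in each library. In the 20 libraries it was 51.4% to 76.2%. The submitters state that 20 libraries were multiplexed together. UUO2 may thus be a separate library batch, so a difference of UUO2 from other groups and a difference of library batch cannot be told apart. Differences are of log2(FPKM + 1), ± the SE of limma, and a call means a limma p under 0.05 after Benjamini-Hochberg adjustment over all 14785 genes. Small values are compressed on this scale. FPKM are shares of a library, and the median gene itself was 0.42 higher in UUO7 than in sham, 0.37 higher in R1W, 0.32 in R2W, 0.30 in R4W, and 0.28 higher in UUO7 than in UUO2; a median-ratio rescaling removes this shift and is quoted where it changes a call.

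The table holds only genes whose mean over all 24 libraries is at least 1, and 23 of the 39 genes had a sham mean under 1 and 12 a UUO2 mean under 1. Those could have a row only by being higher elsewhere, so counts against sham and against UUO2 below describe the listed genes and support nothing further. In bulk tissue, fewer cells of a type and less RNA per cell cannot be told apart. Kidney markers were present: the summed level of 5 proximal tubule genes, mostly Kap, was 36600 to 49100 FPKM in sham, 10300 to 15500 in UUO2 and 9240 to 16600 in UUO7. The 8 macrophage markers (Adgre1, Csf1r, Cd68, Cd14, Itgam, Mrc1, Lyz2 and C1qa) summed to 41.5 to 69 FPKM in sham, 101 to 193 in UUO2, 772 to 957 in UUO7 and 604 to 1180 in R4W, with none at 0 in any group. Not every marker followed this sum at 2 days: Csf1r read 16.73 to 19.75 FPKM in sham and 6.34 to 9.81 in UUO2. The 6 T cell markers summed to 1.12 to 1.49 in sham, 1.44 to 2.90 in UUO2, 9.67 to 15.5 in UUO7 and 15.3 to 33.9 in R4W. Of 7 neutrophil markers 3 had a row, without Ly6g, and they summed to 0.99 to 1.53 in sham, 4.58 to 5.90 in UUO2 and 10.9 to 17.3 in UUO7. A set of 3 libraries stood apart in 3 adipose markers, with sums of 28.8 FPKM in sham replicate 2, 210 in R4W replicate 1 and 49.1 in R4W replicate 3, beside at most 1.95 elsewhere. The part of changing cell numbers in the chemokine results was not tested.

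**Figure D1:**
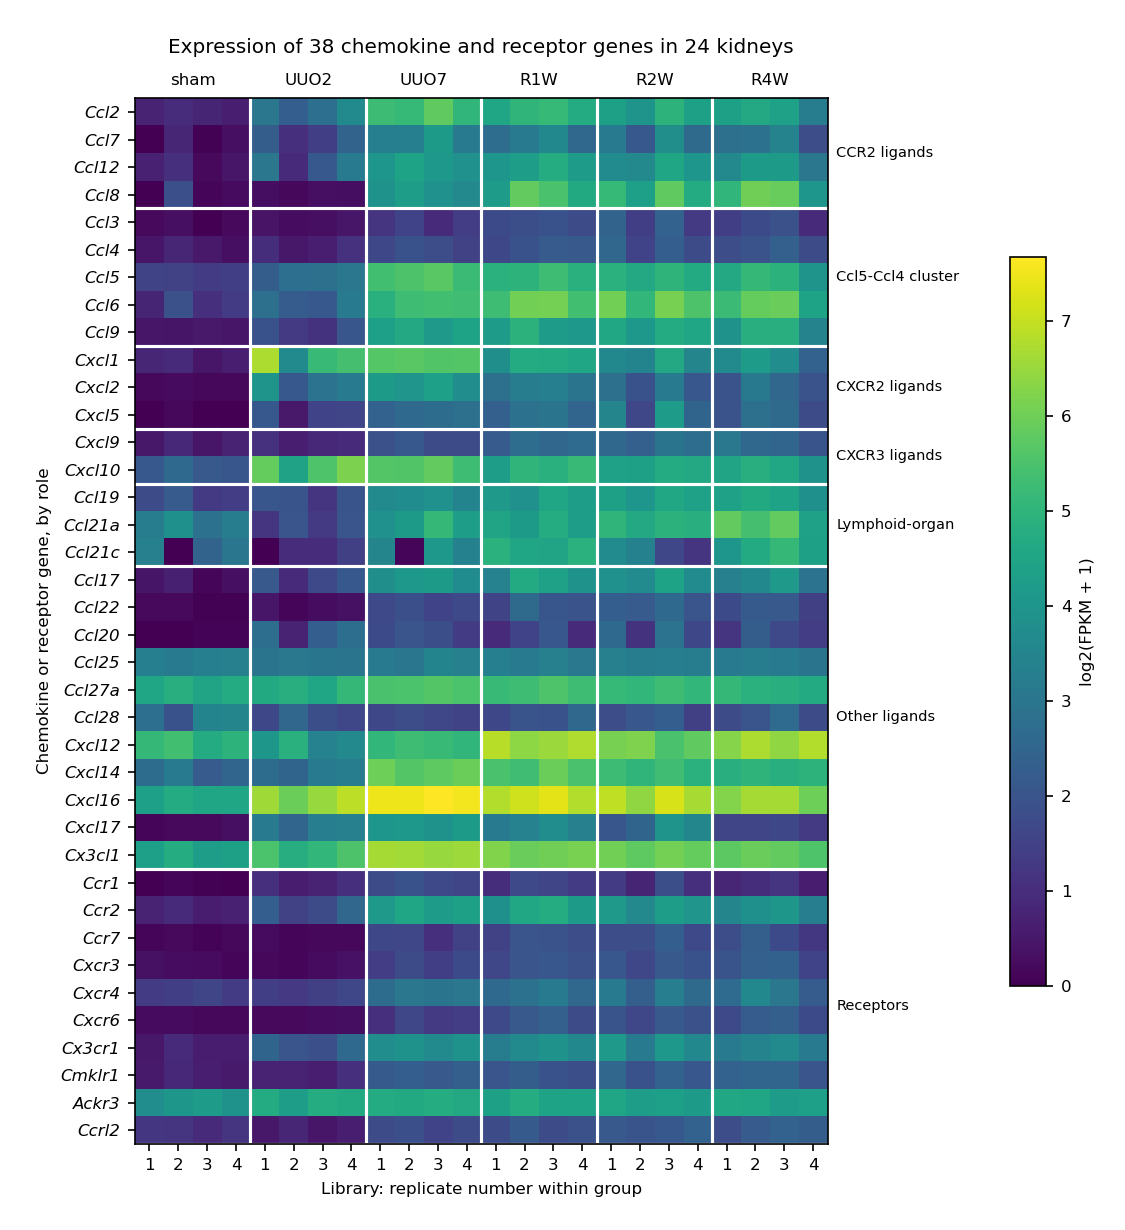
Heat map of log2(FPKM + 1), by colour from dark (0) to yellow, for 38 of the 39 genes (rows, grouped by role) in the 24 libraries (columns, by group and replicate number). Most rows are dark in sham and bright from UUO7 on; Ccl25 and Ackr3 have an even shade throughout, and Cxcl12 is brightest after reversal.

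After 2 days of obstruction 20 of the 39 genes were called higher than in sham, a share of 51.3% beside 32.3% of all genes, and 5 were called lower, 12.8% beside 17.0%. With rescaling these counts were again 20 and 5, beside 25.3% and 25.5% of all genes. With a pseudocount of 10 in place of 1, 18 were called, beside 44.3% of all genes in either direction; the calls of Ccl6, Ccl7, Ccl9, Ccl17, Cxcl5 and Ccrl2 were among those lost. Cxcl1, Cxcl10, Cxcl2 and Cxcl17 had the greatest differences. The 5 lower genes were Ccl21a, Cxcl12, Ccl28, Ccrl2 and Ccl25. The median difference over the 39 genes was 0.62, beside 0.09 over all genes.

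After 7 days 35 were higher than in sham, beside 60.1% of all genes, and Ccl28 alone was lower, beside 17.8% of all genes. With rescaling the counts were 34 and 2, beside 36.5% of all genes in each direction. All 36 called genes separated the sham from the UUO7 libraries without overlap, as did 72.3% of all genes, or 92.9% of the genes called. Ccl25, Ccl21c and Cxcl12 were not called. Against the same sham libraries, 13 genes were not called at 2 days and were called higher at 7 days: Ccl3, Ccl4, Ccl8, Ccl19, Ccl22, Ccl27a, Cxcl9, Cxcl14, Ccr7, Cxcr3, Cxcr4, Cxcr6 and Cmklr1. The share of all genes with this pattern is not given here, so the count of 13 only describes these genes. Tested directly, UUO7 was above UUO2 for 34 of 39 genes, beside 52.0% of all genes, and below it for 0, beside 14.7%; rescaled, the counts were 31 and 1, beside 30.0% and 31.9% of all genes. The 5 genes not called between the 2 times were Cxcl1, Cxcl10, Ccl20, Ackr3 and Ccl28.

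Reversal left most of these genes above sham. Higher than sham were 37 genes in R1W (beside 59.4% of all genes), 36 in R2W (56.1%) and 36 in R4W (54.8%), with 1 lower in each, Ccl28 (14.7%, 12.9% and 11.6% of all genes were lower). With rescaling 36 were higher in R1W, 33 in R2W and 35 in R4W, beside 33.7%, 31.1% and 28.9% of all genes, and 2 were lower in each group, Ccl28 and Ccl25, beside 34.6%, 32.5% and 31.1%. Against UUO7, R1W was higher for Cxcl12, Cxcl9 and Cxcr6 and lower for Cx3cl1 and Cxcl2, shares of 7.69% and 5.13% that lie near the 6.47% and 8.04% of all genes. R4W against UUO7 gave 8 higher and 13 lower, shares of 20.5% and 33.3% near the 17.6% and 30.8% of all genes; with rescaling the counts were the same, beside 25.1% and 23.2%. Between R4W and R1W 1 gene was higher (Ccl21a) and 6 lower (among them Cxcl17, Ccl27a, Cxcl14, Cxcl16 and Ccr2), shares of 2.56% and 15.4% beside 5.06% and 14.1% of all genes. The Ccl21a call was lost in a fit on the 2 groups (adjusted p = 0.0905), with R4W replicate 2 placed in R2W (0.0584), without the 3 libraries high in adipose markers (0.47, adjusted p = 0.349), and on leaving out R1W replicate 2, 3 or 4 or R4W replicate 1, 2 or 3 (0.0595 to 0.103). Without R1W replicate 3 only the Cxcl17 call was left of these 7, beside 4.92% of all genes called in either direction, and likewise in the fit on the 2 groups, beside 1.09%. Without R4W replicate 1 or R4W replicate 4 there were 4 calls each, beside 10.9% and 10.8% of all genes, and without the 3 libraries high in adipose markers 3, beside 2.25%. When a log2 difference of 1 or more in either direction was also asked for, 1 gene was higher and 0 lower in R1W against UUO7 (0.913% and 0.413% of all genes). In R4W against UUO7 that rule called 2 higher, Cxcl12 and Ccl8, a share of 5.13% beside 3.11% of all genes, and 6 lower, Ccl2, Cxcl1, Cxcl2, Cxcl10, Cxcl16 and Cxcl17, a share of 15.4% beside 2.92%. In R4W against R1W it called 1, Cxcl17, lower (0.419% of all genes were higher and 0.352% lower).

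The CCR2 ligands, which recruit monocytes, were led by Ccl2. Ccl2 read 0.71, 0.98, 0.73 and 0.56 FPKM in sham, 7.32, 3.88, 5.97 and 11.6 in UUO2, and 37.3, 34.2, 54.8 and 32.5 in UUO7. In R1W Ccl2 read 22.2, 31.9, 34.8 and 25.7 FPKM, in R2W 19.7, 14.9, 30.0 and 19.8, and in R4W 19.6, 23.9, 20.2 and 8.57. The obstructed and reversed libraries all lay above every sham library, and all 4 UUO7 libraries exceeded the UUO2 ones. The difference from sham was 2.15 ± 0.28 at 2 days and 4.52 ± 0.28 at 7 days (limma adjusted p = 2.96e-06 and 3.94e-11). R4W was lower than UUO7, with a difference of -1.15 ± 0.28 (limma adjusted p = 0.00226), with no overlap between those groups, and remained 3.37 ± 0.28 above sham.

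Ccl7 and Ccl12, monocyte attractants encoded next to Ccl2, rose with it. Ccl7 read 0, 0.76, 0.04 and 0.24 FPKM in sham, 3.78, 1.04, 1.67 and 4.48 in UUO2, and 8.99, 9.02, 17.0 and 8.11 in UUO7. In R1W Ccl7 read 5.75, 8.04, 10.98 and 5.09 FPKM, in R2W 7.70, 3.34, 12.8 and 5.36, and in R4W 6.14, 6.31, 9.80 and 2.54. One UUO7 library, replicate 3, was well above the other UUO7 libraries, and every UUO7 library was above every sham and UUO2 one. Ccl12 read 0.64, 1.04, 0.15 and 0.37 FPKM in sham, 7.28, 0.93, 3.34 and 8.25 in UUO2, and 15.5, 20.8, 16.2 and 13.9 in UUO7. In R1W Ccl12 read 15.5, 18.4, 26.3 and 17.8 FPKM, in R2W 11.9, 11.4, 22.5 and 15.4, and in R4W 11.3, 17.4, 17.1 and 7.24. For Ccl12 1 UUO2 library lay below the highest sham library. Differences from sham at 7 days were 3.21 ± 0.38 for Ccl7 and 3.53 ± 0.37 for Ccl12 (limma adjusted p = 1.34e-07 and 2.43e-08). Neither was called between R4W and UUO7 (limma adjusted p = 0.1 and 0.425); Ccl7 was called lower without R4W replicate 3 (-0.99, adjusted p = 0.0462) and without the 3 libraries high in adipose markers (-1.15, adjusted p = 0.048).

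Ccl8, listed with the CCR2 ligands although the mouse protein is also known as an agonist of CCR8, was not called at 2 days (limma adjusted p = 0.611). Ccl8 read 0, 2.64, 0.08 and 0.17 FPKM in sham, 0.21, 0.11, 0.24 and 0.23 in UUO2, and 14.3, 18.7, 13.7 and 11.3 in UUO7. In R1W Ccl8 read 17.6, 55.7, 43.7 and 24.2 FPKM, in R2W 34.6, 19.1, 54.7 and 25.7, and in R4W 32.5, 64.0, 58.5 and 15.4. UUO2 libraries lay within 0.11 to 0.24 FPKM beside at most 0.17 in 3 sham libraries, and the remaining sham library, replicate 2, stood above both. The mean then went from 14.5 ± 3.09 FPKM in UUO7 to 42.6 ± 22.7 in R4W, with overlap between these groups. R4W was higher than UUO7 by 1.32 ± 0.44 (limma adjusted p = 0.0166). That call was lost without R4W replicate 2 (adjusted p = 0.0632), without R4W replicate 3 (0.0585), with R4W replicate 2 placed in R2W (0.0695), without the libraries high in adipose markers (0.067) and with a pseudocount of 0.1 (0.104). Within the same gene cluster Ccl2 was called lower and Ccl8 higher in R4W than in UUO7.

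**Figure D2:**
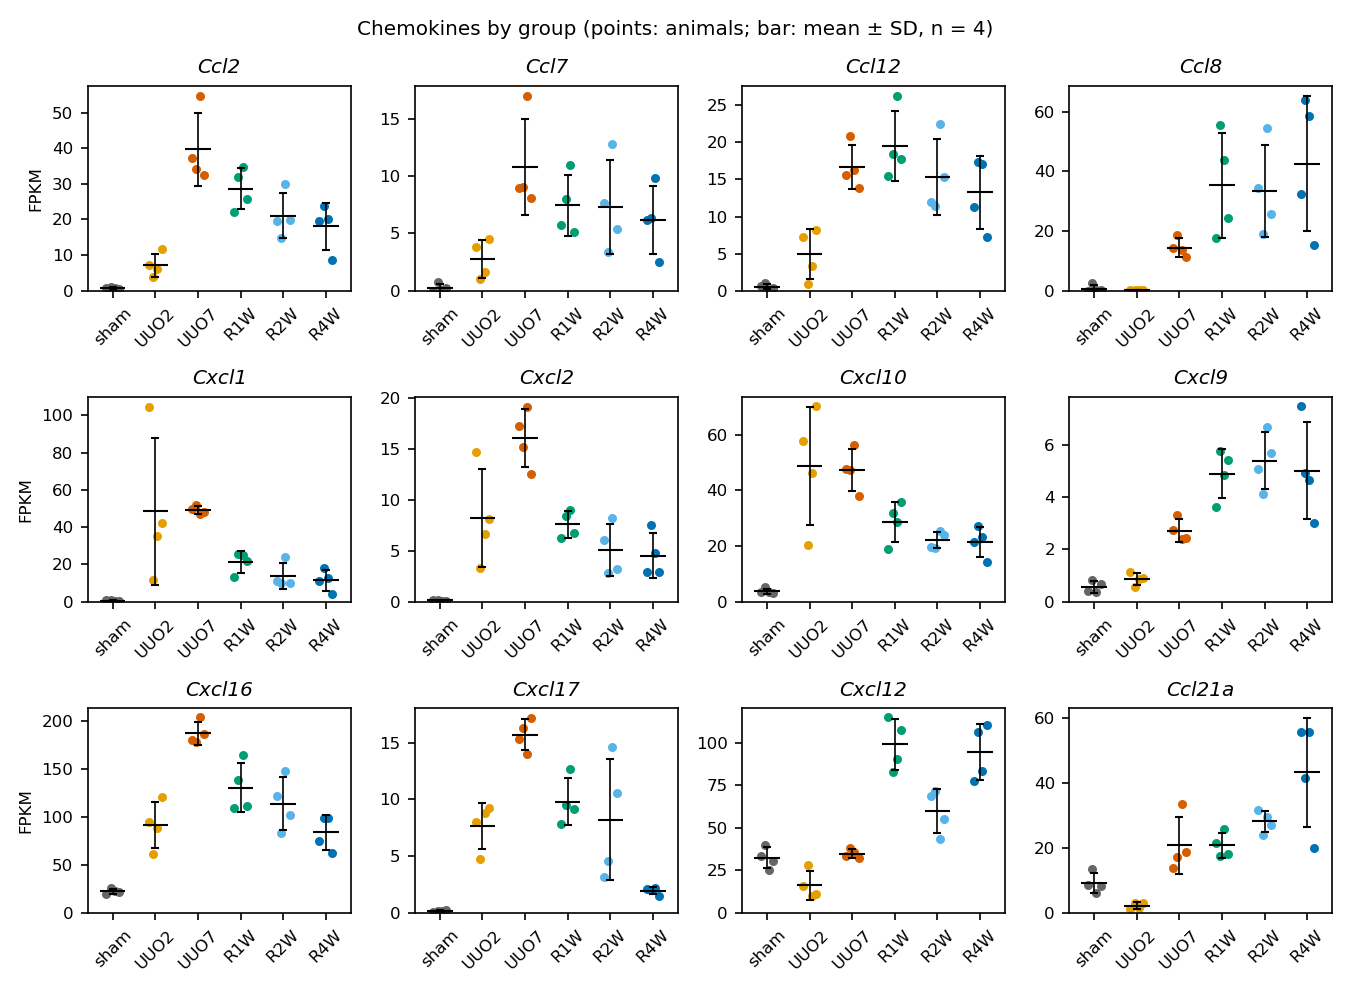
FPKM of 12 chemokines by group, 1 point per animal, with the mean and SD (n = 4). Ccl2, Cxcl1, Cxcl2, Cxcl10, Cxcl16 and Cxcl17 are lower in R4W than in UUO7; Ccl8, Cxcl9, Cxcl12 and Ccl21a are higher in R4W than in UUO7.

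The CC chemokines of the cluster from Ccl5 to Ccl4, which attract monocytes, macrophages and T cells, were all higher in UUO7 than in sham. Ccl5 (RANTES), a product of T cells and injured epithelium, was the highest of them in UUO7. Ccl5 read 2.01, 1.78, 1.55 and 1.69 FPKM in sham, 3.82, 6.01, 6.18 and 7.29 in UUO2, and 40.1, 45.4, 51.9 and 36.7 in UUO7. In R1W Ccl5 read 28.8, 30.4, 38.6 and 28.2 FPKM, in R2W 29.1, 23.7, 31.0 and 25.0, and in R4W 23.6, 33.4, 29.4 and 14.8. The groups sham, UUO2 and UUO7 did not overlap, and R4W lay between UUO2 and UUO7. The difference from sham was 1.28 ± 0.19 at 2 days and 4.00 ± 0.19 at 7 days, and that of R4W from UUO7 was -0.81 ± 0.19 (limma adjusted p = 1.31e-05, 2.15e-12 and 0.00171).

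Ccl6 and Ccl9, rodent CCR1 ligands made largely by myeloid cells, were called higher than sham from 2 days on, although with a pseudocount of 10 the 2-day calls were lost (0.40 and 0.23, adjusted p = 0.16 and 0.281). Ccl6 read 0.74, 2.72, 1.03 and 1.57 FPKM in sham, 6.15, 3.68, 3.33 and 7.75 in UUO2, and 28.6, 38.7, 40.3 and 39.5 in UUO7. In R1W Ccl6 read 38.7, 65.6, 67.1 and 39.7 FPKM, in R2W 64.7, 32.9, 67.3 and 45.3, and in R4W 37.0, 56.7, 59.3 and 20.7. UUO7 replicate 1 was the lowest of its group, and the reversal groups spread widely around UUO7. Ccl9 read 0.39, 0.34, 0.44 and 0.39 FPKM in sham, 2.85, 1.48, 1.19 and 3.18 in UUO2, and 19.2, 24.0, 16.6 and 20.7 in UUO7. In R1W Ccl9 read 18.0, 29.7, 17.4 and 16.0 FPKM, in R2W 22.8, 16.3, 25.7 and 22.3, and in R4W 14.1, 27.0, 27.3 and 9.92. The differences from sham at 7 days were 3.96 ± 0.32 for Ccl6 and 3.91 ± 0.26 for Ccl9 (limma adjusted p = 8.83e-10 and 1.03e-10). Neither was called between R4W and UUO7 (limma adjusted p = 0.745 and 0.684).

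Ccl3 and Ccl4, the macrophage inflammatory proteins 1-alpha and 1-beta, were low throughout. Ccl3 read 0.15, 0.25, 0 and 0.15 FPKM in sham, 0.32, 0.20, 0.25 and 0.37 in UUO2, and 1.28, 1.94, 0.87 and 1.65 in UUO7. In R1W Ccl3 read 2.29, 2.62, 2.82 and 2.35 FPKM, in R2W 4.47, 1.67, 4.37 and 1.49, and in R4W 1.67, 2.28, 2.72 and 0.93. The UUO2 libraries of Ccl3 overlapped sham, and all UUO7 libraries lay above both. Ccl4 read 0.37, 0.79, 0.45 and 0.24 FPKM in sham, 0.99, 0.41, 0.58 and 1.15 in UUO2, and 2.15, 2.86, 2.55 and 1.79 in UUO7. In R1W Ccl4 read 2.16, 2.83, 3.57 and 3.42 FPKM, in R2W 4.85, 1.91, 3.90 and 2.36, and in R4W 2.49, 2.94, 4.11 and 2.48. UUO7 was above sham by 1.08 ± 0.23 for Ccl3 and 1.19 ± 0.20 for Ccl4 (limma adjusted p = 0.000187 and 1.44e-05), while neither was called at 2 days (limma adjusted p = 0.542 and 0.262).

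The CXCR2 ligands Cxcl1, Cxcl2 and Cxcl5 attract neutrophils, and all 3 were near 0 in sham. Cxcl1 read 0.77, 0.88, 0.38 and 0.55 FPKM in sham, 105, 11.8, 35.3 and 42.0 in UUO2, and 49.7, 51.8, 47.2 and 48.2 in UUO7. In R1W Cxcl1 read 13.2, 25.4, 25.0 and 21.8 FPKM, in R2W 11.1, 9.96, 24.1 and 10.2, and in R4W 11.4, 18.1, 12.5 and 4.35. Cxcl1 already stood at its UUO7 mean after 2 days, but the 4 UUO2 animals ranged from 11.8 to 105 FPKM, around the UUO7 animals. The difference from sham was 4.55 ± 0.44 at 2 days and 4.94 ± 0.44 at 7 days (limma adjusted p = 7.65e-08 and 3.43e-09). UUO7 and UUO2 were not told apart: the difference was 0.40 ± 0.44 (95% interval -0.52 to 1.32, limma adjusted p = 0.443), -0.42 in the authors' deposited table, and -0.13 without UUO2 replicate 2. R1W lay below UUO7 without overlap, with a difference of -1.21 ± 0.44, which was not called (limma adjusted p = 0.0679). It was called without the UUO2 libraries (adjusted p = 0.0132), in a fit on the 2 groups (0.0047) and with a pseudocount of 10 (0.0443). R4W was -2.13 ± 0.44 against UUO7 (limma adjusted p = 0.000599).

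Cxcl2, a further neutrophil attractant, was higher in UUO7 than in UUO2. Cxcl2 read 0.13, 0.16, 0.12 and 0.12 FPKM in sham, 14.7, 3.29, 6.63 and 8.12 in UUO2, and 17.2, 15.2, 19.1 and 12.5 in UUO7. In R1W Cxcl2 read 6.21, 8.40, 8.98 and 6.78 FPKM, in R2W 6.08, 2.83, 8.25 and 3.21, and in R4W 2.90, 7.54, 4.74 and 2.92. Its UUO2 libraries reached into the range of UUO7, and both groups lay wholly above sham. UUO7 exceeded UUO2 by 1.02 ± 0.32 (limma adjusted p = 0.00736), a call that ended with rescaling (adjusted p = 0.05, difference 0.71). Whether Cxcl1 and Cxcl2 differ in this step was not tested. In R1W Cxcl2 was -0.98 ± 0.32 against UUO7 (limma adjusted p = 0.0412), and in R4W -1.69 ± 0.32 (limma adjusted p = 0.000242). The R1W call was lost when any 1 UUO7 library or R1W replicate 1, 2 or 4 was left out, with adjusted p from 0.0521 to 0.106, and with a pseudocount of 0.1 (0.0578).

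Cxcl5 read 0, 0.11, 0 and 0.02 FPKM in sham, 3.34, 0.45, 1.89 and 2.06 in UUO2, and 4.32, 5.19, 5.63 and 6.14 in UUO7. In R1W Cxcl5 read 4.10, 6.49, 6.78 and 4.66 FPKM, in R2W 10.2, 2.13, 18.1 and 4.53, and in R4W 2.93, 6.20, 5.24 and 2.46. In R2W the Cxcl5 values of replicates 1 and 3 were far above those of replicates 2 and 4. These same R2W replicates were also the higher ones for Cxcl2 and Ccl20. UUO7 was above sham by 2.61 ± 0.39, and R4W was not called against UUO7 (limma adjusted p = 4.15e-06 and 0.499). Neutrophil markers, 3 genes with a row, summed to 34.8, 6.11, 45.7 and 11.2 FPKM in R2W replicates 1 to 4, and the 8 macrophage markers to 1700, 694, 1410 and 891. Both were thus higher in the same replicates 1 and 3, and their part in this spread was not tested.

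Cxcl9 and Cxcl10 are interferon-induced ligands of CXCR3, the receptor of activated T cells and natural killer cells, and their genes are neighbours. Cxcl10 read 3.35, 5.16, 3.45 and 3.13 FPKM in sham, 57.9, 20.5, 46.4 and 70.2 in UUO2, and 47.9, 47.4, 56.2 and 37.9 in UUO7. In R1W Cxcl10 read 18.9, 31.8, 28.6 and 35.8 FPKM, in R2W 19.9, 19.5, 25.5 and 23.83, and in R4W 21.4, 27.4, 23.2 and 14.4. All UUO2 and UUO7 libraries of Cxcl10 were above sham, and the UUO2 range enclosed that of UUO7. Cxcl9 read 0.41, 0.84, 0.37 and 0.66 FPKM in sham, 1.12, 0.55, 0.86 and 0.91 in UUO2, and 2.72, 3.32, 2.38 and 2.45 in UUO7. In R1W Cxcl9 read 3.60, 5.75, 4.82 and 5.40 FPKM, in R2W 5.05, 4.10, 6.68 and 5.69, and in R4W 7.46, 4.90, 4.64 and 3.00. Cxcl9 overlapped sham at 2 days, was higher in UUO7 and higher again in every R1W library. Against sham, Cxcl10 differed by 3.27 ± 0.27 and 3.35 ± 0.27 at 2 and 7 days (limma adjusted p = 1.12e-08 and 1.03e-09); for Cxcl9 the 7-day value was 1.25 ± 0.18 (limma adjusted p = 2.17e-06) and 2 days was not called (limma adjusted p = 0.272).

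Between UUO2 and UUO7 the Cxcl10 difference was 0.07 ± 0.27 (95% interval -0.49 to 0.64, limma adjusted p = 0.823), -0.38 in the authors' deposited table and -0.27 after rescaling, so its direction is not settled. In R4W Cxcl10 was -1.12 ± 0.27 and Cxcl9 0.65 ± 0.18 against UUO7 (limma adjusted p = 0.00224 and 0.00574). For Cxcl9 the groups overlapped, and its call was lost without the 3 libraries high in adipose markers (0.39, adjusted p = 0.107). Against UUO7 in R1W, Cxcl9 was higher by 0.66 ± 0.18 (limma adjusted p = 0.0194), which was lost without UUO7 replicate 3 (adjusted p = 0.0564), UUO7 replicate 4 (0.0532) or R1W replicate 4 (0.0605).

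Ccl19 and Ccl21a are the CCR7 ligands that draw dendritic cells and naive T cells to lymphoid tissue; CCL21 is also made by lymphatic endothelium. Ccl19 read 2.38, 3.66, 1.45 and 1.62 FPKM in sham, 3.19, 2.97, 1.27 and 3.01 in UUO2, and 11.9, 12.3, 13.6 and 10.1 in UUO7. In R1W Ccl19 read 16.3, 13.7, 22.2 and 18.5 FPKM, in R2W 19.6, 15.6, 22.8 and 20.2, and in R4W 19.8, 24.6, 21.1 and 13.4. Sham and UUO2 overlapped, and all later libraries lay above both. Ccl21a read 8.42, 13.4, 6.23 and 8.28 FPKM in sham, 1.22, 3.04, 1.49 and 3.07 in UUO2, and 13.8, 17.2, 33.5 and 18.6 in UUO7. In R1W Ccl21a read 21.5, 17.4, 25.9 and 18.2 FPKM, in R2W 31.8, 24.0, 29.5 and 27.1, and in R4W 55.6, 41.6, 55.8 and 19.9. Every UUO2 library of Ccl21a was below every sham library, and every UUO7 library above. The differences from sham were -1.66 ± 0.30 at 2 days and 1.08 ± 0.30 at 7 days (limma adjusted p = 0.000101 and 0.00231); the latter was 0.63 after rescaling (adjusted p = 0.0553). UUO7 against UUO2 gave 2.74 ± 0.30 (limma adjusted p = 1.04e-07). Ccl19 was 2.02 ± 0.22 above sham at 7 days (limma adjusted p = 3.6e-08).

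Both lymphoid chemokines were higher in R4W than in UUO7, by 0.66 ± 0.22 for Ccl19 and 0.99 ± 0.30 for Ccl21a (limma adjusted p = 0.0164 and 0.00898), with overlap between the groups for each. The Ccl19 call was lost without R4W replicate 2 (adjusted p = 0.0587). Without the 3 libraries high in adipose markers the values were 0.58 and 0.53 (adjusted p = 0.0772 and 0.189). The 2 highest Ccl21a values were those of R4W replicates 1 and 3, which carried the adipose markers. Urothelial markers also moved with this group: 4 of 4 summed to 36.8 to 117 FPKM in R4W and 9.52 to 23.5 in UUO7. Of 4 lymph vessel markers 3 had a row, and they summed to 4.37 to 7.86 FPKM in sham, 6.26 to 10.4 in UUO2, 26.0 to 30.4 in UUO7 and 22.2 to 29.3 in R4W, mostly Pdpn. Among them Prox1 alone was called in R4W against UUO7, higher by 0.94 ± 0.18 (limma adjusted p = 0.000317). It read 1.14 to 2.38 FPKM in sham, 0.25 to 1.14 in UUO2, 0.45 to 0.74 in UUO7 and 1.42 to 2.59 in R4W. The part of these tissues in the result was not tested further.

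Ccl21c read 9.15, 0, 4.42 and 7.10 FPKM in sham, 0, 0.98, 0.95 and 1.72 in UUO2, and 10.3, 0.09, 16.2 and 9.37 in UUO7. In R1W Ccl21c read 29.3, 22.2, 21.6 and 29.3 FPKM, in R2W 12.1, 9.33, 2.11 and 1.26, and in R4W 15.3, 24.9, 33.8 and 19.8. Values near 0 and above 9 FPKM occurred within the sham and the UUO7 group of Ccl21c, which is the near-copy of Ccl21a. The difference between UUO7 and sham was 0.58 ± 0.75 (limma adjusted p = 0.487), -0.16 without sham replicate 2, and 1.46 without UUO7 replicate 2, where it was called (adjusted p = 0.0442). UUO7 was 1.93 ± 0.75 above UUO2 (limma adjusted p = 0.0278), a call that ended with rescaling (1.73, adjusted p = 0.054), with a pseudocount of 0.1 (0.0855), in a fit on the 2 groups (0.0581) and without UUO2 replicate 1 or UUO7 replicate 1, 3 or 4 (0.0722 to 0.104). R4W was 1.78 ± 0.75 against UUO7 and was not called (limma adjusted p = 0.0544); it was called with a pseudocount of 10 (0.87, adjusted p = 0.00828), when a mean of 5 FPKM or more was asked for (adjusted p = 0.0495) and without UUO7 replicate 3 (2.22, adjusted p = 0.0293).

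Ccl17 and Ccl22 are dendritic cell and macrophage products that act on CCR4. Ccl17 read 0.34, 0.59, 0.08 and 0.25 FPKM in sham, 3.40, 0.93, 2.23 and 3.34 in UUO2, and 13.1, 16.0, 17.1 and 12.4 in UUO7. In R1W Ccl17 read 9.62, 24.8, 19.9 and 14.5 FPKM, in R2W 13.7, 11.9, 21.04 and 12.0, and in R4W 9.12, 10.9, 16.8 and 6.63. Ccl17 was above sham in every UUO2 library and higher again in every UUO7 one. Ccl22 read 0.15, 0.15, 0.03 and 0.03 FPKM in sham, 0.37, 0.08, 0.20 and 0.27 in UUO2, and 2.27, 2.67, 1.93 and 2.24 in UUO7. In R1W Ccl22 read 1.97, 5.26, 3.19 and 2.94 FPKM, in R2W 3.96, 3.58, 5.18 and 3.11, and in R4W 2.31, 3.55, 3.38 and 1.77. Ccl22 overlapped sham at 2 days and was above it from UUO7 on. UUO7 exceeded sham by 3.58 ± 0.28 for Ccl17 and 1.59 ± 0.18 for Ccl22 (limma adjusted p = 7.78e-10 and 9.56e-08). Neither was called between R4W and UUO7 (limma adjusted p = 0.192 and 0.455). Dendritic cell markers (5 of 5) summed to 2.49 to 3.50 FPKM in sham, 22.6 to 30.6 in UUO7 and 19.3 to 37.2 in R4W; their part in these results was not tested.

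Ccl20, the epithelial ligand of CCR6, had its highest group mean early. Ccl20 read 0, 0.02, 0.05 and 0.05 FPKM in sham, 5.81, 0.70, 3.96 and 5.81 in UUO2, and 2.29, 3.11, 2.56 and 1.56 in UUO7. In R1W Ccl20 read 0.90, 1.94, 3.26 and 0.93 FPKM, in R2W 5.21, 1.19, 6.59 and 2.16, and in R4W 1.21, 3.82, 2.27 and 1.62. Sham was at or near 0 in every library and UUO2 spread from 0.70 to 5.81 FPKM. The difference from sham was 2.11 ± 0.40 at 2 days and 1.69 ± 0.40 at 7 days (limma adjusted p = 0.000209 and 0.000685). UUO7 and UUO2 overlapped and were not called (limma adjusted p = 0.372), except without UUO2 replicate 2, where UUO7 was called lower (-0.88, adjusted p = 0.0353).

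Cxcl12, the homeostatic ligand of CXCR4 and ACKR3, had the highest mean level of the 39 genes in sham. Cxcl12 read 33.6, 40.1, 25.4 and 30.4 FPKM in sham, 15.8, 28.3, 9.58 and 11.2 in UUO2, and 33.1, 38.3, 35.6 and 32.1 in UUO7. In R1W Cxcl12 read 115, 82.9, 90.5 and 107 FPKM, in R2W 68.4, 71.7, 43.6 and 54.9, and in R4W 77.4, 106, 83.0 and 110. It fell in 3 of 4 UUO2 libraries below all sham libraries, overlapped sham in UUO7, and exceeded every sham, UUO2 and UUO7 library in R1W, R2W and R4W. Against sham the differences were -1.05 ± 0.23 in UUO2, 1.59 ± 0.23 in R1W and 1.52 ± 0.23 in R4W (limma adjusted p = 0.000743, 3.39e-06 and 1.09e-05). UUO7 was not called against sham: 0.12 ± 0.23 (limma adjusted p = 0.652), -0.36 after rescaling, and -0.52 in the authors' deposited table, where its adjusted p is 1.42e-05. Against UUO7, R1W was 1.47 ± 0.23 and R4W 1.40 ± 0.23 higher (limma adjusted p = 0.000732 and 7.59e-05), without overlap. R2W was 0.85 ± 0.23 against sham (limma adjusted p = 0.00256), a call that ended with rescaling (0.47, adjusted p = 0.0933). Without the 3 libraries high in adipose markers the R4W call against UUO7 remained. Endothelial markers (4 of 4), a source of CXCL12 in many tissues, summed to 41.1 to 75.8 FPKM in sham, 21.4 to 49.4 in UUO2, 112 to 126 in UUO7, 101 to 121 in R1W, 94.9 to 131 in R2W and 102 to 124 in R4W. Against sham 2 of the 4 were called lower in UUO2 (4 with rescaling), beside 17.0% of all genes (25.5% with rescaling). In UUO7 3 were called higher, beside 60.1%. In each of R1W, R2W and R4W 4 were called higher (3 with rescaling), beside 59.4%, 56.1% and 54.8% (33.7%, 31.1% and 28.9% with rescaling). Against UUO7 0 were called in R1W, beside 6.47% of all genes higher and 8.04% lower, and 1 was higher in R4W, beside 17.6%. The part of endothelium in the Cxcl12 differences was not tested.

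Cxcl16 and Cx3cl1 encode the family's transmembrane members, which both tether leukocytes and are shed by ADAM proteases. Cxcl16 read 19.2, 25.4, 22.3 and 21.9 FPKM in sham, 94.9, 61.1, 88.8 and 120 in UUO2, and 180, 178, 204 and 186 in UUO7. In R1W Cxcl16 read 109, 138, 164 and 111 FPKM, in R2W 122, 83.3, 148 and 102, and in R4W 74.8, 98.5, 98.8 and 62.7. Cxcl16 had the highest group mean of the family in UUO2, UUO7, R1W and R2W. Its groups sham, UUO2 and UUO7 did not overlap, with differences from sham of 1.96 ± 0.19 and 3.02 ± 0.19 (limma adjusted p = 8.04e-08 and 5.13e-11). R4W was -1.17 ± 0.19 against UUO7 (limma adjusted p = 7.19e-05).

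Cx3cl1 read 19.1, 25.9, 18.5 and 19.4 FPKM in sham, 44.5, 26.7, 32.7 and 45.5 in UUO2, and 98.3, 96.3, 89.9 and 93.8 in UUO7. In R1W Cx3cl1 read 73.5, 59.4, 63.9 and 70.0 FPKM, in R2W 64.8, 54.1, 66.3 and 57.0, and in R4W 53.1, 60.2, 56.3 and 46.3. Cx3cl1, the ligand of CX3CR1, also rose in steps without overlap, by 0.80 ± 0.14 and 2.15 ± 0.14 over sham at 2 and 7 days (limma adjusted p = 6.21e-05 and 5.13e-11). It was the higher expressed of the 2 genes called lower in the first week, -0.50 ± 0.14 in R1W against UUO7 (limma adjusted p = 0.0186), and was -0.80 ± 0.14 in R4W (limma adjusted p = 9.73e-05). Adam10 and Adam17, which encode the sheddases, had means of 13.4 ± 1.56 and 6.37 ± 0.398 FPKM in sham and 26.9 ± 2.54 and 10.9 ± 1.55 in UUO7.

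Cxcl17, a mucosal chemokine, had the most negative difference of the 39 genes in R4W against UUO7. Cxcl17 read 0.10, 0.15, 0.14 and 0.25 FPKM in sham, 7.98, 4.72, 8.78 and 9.19 in UUO2, and 15.3, 16.2, 14.0 and 17.2 in UUO7. In R1W Cxcl17 read 7.79, 9.53, 12.7 and 9.15 FPKM, in R2W 3.12, 4.57, 14.6 and 10.5, and in R4W 2.07, 2.03, 2.14 and 1.48. All UUO7 libraries were above all UUO2 libraries, and all R4W libraries were below those of every other injured group. In R2W replicates 3 and 4 were as high as R1W, and replicates 1 and 2 were lower. UUO7 was 3.84 ± 0.28 above sham, R4W was -2.51 ± 0.28 against UUO7 and -1.87 ± 0.28 against R1W (limma adjusted p = 2.59e-10, 2.38e-06 and 0.0013). R4W was still 1.33 ± 0.28 above sham (limma adjusted p = 0.000338), a call that was lost with a pseudocount of 10 (0.23, adjusted p = 0.13).

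Cxcl14, a chemokine of skin and other epithelia, was not called at 2 days (limma adjusted p = 0.229), except without sham replicate 2 (0.43, adjusted p = 0.0443). Cxcl14 read 5.53, 7.77, 3.66 and 4.69 FPKM in sham, 5.59, 4.58, 8.18 and 8.40 in UUO2, and 62.1, 48.4, 53.6 and 60.6 in UUO7. In R1W Cxcl14 read 43.9, 39.3, 60.7 and 44.0 FPKM, in R2W 37.7, 31.9, 38.9 and 29.0, and in R4W 27.8, 31.2, 27.7 and 30.0. Its UUO2 libraries overlapped sham and its UUO7 libraries were all above both. UUO7 was 3.19 ± 0.18 above sham and 2.92 ± 0.18 above UUO2 (limma adjusted p = 1.25e-11 and 9.74e-11), and R4W was -0.92 ± 0.18 against UUO7 (limma adjusted p = 0.00034). The R4W animals lay within 27.7 to 31.2 FPKM.

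Ccl25, Ccl27a and Ccl28 are epithelial chemokines of gut, skin and mucosa. Ccl27a read 22.0, 27.8, 21.3 and 25.4 FPKM in sham, 24.4, 27.3, 21.9 and 33.4 in UUO2, and 43.1, 44.0, 48.8 and 44.1 in UUO7. In R1W Ccl27a read 35.1, 37.9, 46.3 and 38.4 FPKM, in R2W 34.2, 33.0, 38.3 and 32.9, and in R4W 34.0, 29.0, 27.1 and 25.1. Ccl27a rose by 0.88 ± 0.12 in UUO7 (limma adjusted p = 5.97e-07) and has near-copies in the genome that were not analysed here. Its R2W call against sham (0.51 ± 0.12, limma adjusted p = 0.000596) ended with rescaling (0.13, adjusted p = 0.306). Its R4W value was 0.25 ± 0.12 against sham (limma adjusted p = 0.0646), -0.12 after rescaling and -0.09 in the authors' deposited table; it was called higher without the UUO2 group (adjusted p = 0.0378), sham replicate 2 (0.0273) or R4W replicate 4 (0.0331). Ccl25 read 8.94, 7.86, 8.91 and 9.21 FPKM in sham, 6.71, 7.45, 6.89 and 6.81 in UUO2, and 8.19, 7.02, 10.1 and 9.23 in UUO7. In R1W Ccl25 read 9.03, 7.92, 9.24 and 7.41 FPKM, in R2W 9.22, 8.56, 8.77 and 8.64, and in R4W 7.97, 8.42, 8.05 and 6.68. Ccl25 was -0.29 ± 0.09 in UUO2 and -0.02 ± 0.09 in UUO7 against sham (limma adjusted p = 0.0106 and 0.811), and with rescaling -0.46 in UUO7 (adjusted p = 0.000148). After reversal Ccl25 was not called against sham, and with rescaling it was called lower in R1W, R2W and R4W (-0.46, -0.34 and -0.49, adjusted p = 0.000206, 0.00312 and 0.000136). In R2W the difference was 0.01 ± 0.09 here and -0.32 in the authors' deposited table, where its adjusted p is 0.00932. Its call in UUO7 against UUO2, 0.26 ± 0.09 (limma adjusted p = 0.013), ended with rescaling (-0.05, adjusted p = 0.67), in a fit on the 2 groups (0.0501) and without UUO7 replicate 3 (0.0643). Ccl28 read 5.94, 2.83, 10.1 and 10.2 FPKM in sham, 2.20, 4.76, 2.59 and 2.13 in UUO2, and 2.19, 2.54, 2.08 and 1.97 in UUO7. In R1W Ccl28 read 2.18, 2.96, 2.85 and 4.91 FPKM, in R2W 2.55, 3.28, 3.93 and 1.75, and in R4W 2.47, 3.10, 5.49 and 2.44. Ccl28 was the member lower than sham in all 5 other groups, with a difference of -1.25 ± 0.29 in UUO7 (limma adjusted p = 0.000609), although sham itself ranged from 2.83 to 10.2 FPKM. Its R4W call was lost without sham replicate 3 (adjusted p = 0.0676) or sham replicate 4 (0.0675) and in a fit on the 2 groups (0.0693).

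Among receptors, all 11 were higher than sham in UUO7 and after reversal, beside 54.8% to 60.1% of all genes; with rescaling 11 were higher in UUO7, beside 36.5%, and 10, without Ackr3, in R1W, R2W and R4W, beside 33.7%, 31.1% and 28.9%. In UUO2 5 were higher and Ccrl2 was lower, beside 32.3% and 17.0% of all genes, the latter call being lost with a pseudocount of 10 (adjusted p = 0.0571). Ccr2, the receptor of inflammatory monocytes, was the highest of the leukocyte receptors in UUO7. Ccr2 read 0.71, 0.91, 0.52 and 0.64 FPKM in sham, 3.87, 1.87, 2.41 and 4.78 in UUO2, and 16.6, 22.2, 17.5 and 19.4 in UUO7. In R1W Ccr2 read 13.5, 23.2, 26.0 and 17.1 FPKM, in R2W 16.6, 11.3, 18.8 and 15.2, and in R4W 10.4, 13.6, 15.7 and 8.82. Its groups sham, UUO2 and UUO7 did not overlap. Differences from sham at 2 and 7 days were 1.27 ± 0.22 and 3.55 ± 0.22 (limma adjusted p = 6.52e-05 and 3.27e-11).

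Ccr2 was lower in R4W than in UUO7, with a difference of -0.62 ± 0.22 (limma adjusted p = 0.0222). That call was lost without UUO7 replicate 2 (adjusted p = 0.0642), R4W replicate 1 (0.0598) or R4W replicate 4 (0.087). Ccr1 read 0.02, 0.07, 0.03 and 0.02 FPKM in sham, 1.09, 0.49, 0.67 and 1.05 in UUO2, and 2.47, 2.80, 2.27 and 2.03 in UUO7. In R1W Ccr1 read 1.00, 2.21, 2.05 and 1.54 FPKM, in R2W 1.51, 0.74, 2.57 and 1.08, and in R4W 0.79, 1.01, 1.28 and 0.54. Ccr1, a receptor of monocytes and neutrophils, rose from near 0 and was -0.84 ± 0.18 in R4W against UUO7 (limma adjusted p = 0.000904), without overlap. Cx3cr1 read 0.40, 0.89, 0.53 and 0.50 FPKM in sham, 4.54, 3.03, 2.67 and 5.13 in UUO2, and 12.5, 14.4, 11.8 and 14.3 in UUO7. In R1W Cx3cr1 read 8.56, 11.4, 14.5 and 10.9 FPKM, in R2W 16.4, 8.25, 16.0 and 11.04, and in R4W 8.05, 9.77, 11.7 and 8.22. Cx3cr1, which marks resident macrophages and patrolling monocytes, was 3.18 ± 0.19 above sham in UUO7 (limma adjusted p = 3.23e-11) and was not called in R4W against UUO7 (limma adjusted p = 0.0555). It was called lower with a pseudocount of 10 (adjusted p = 0.0334), in a fit on the 2 groups (0.0115), without the UUO2 group (0.046) and without R4W replicate 3 (0.0339). Of the 8 macrophage markers 0 were higher and 2 lower in R4W than in UUO7, beside 17.6% and 30.8% of all genes. The part of macrophage numbers in the receptor values was not tested.

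**Figure D3:**
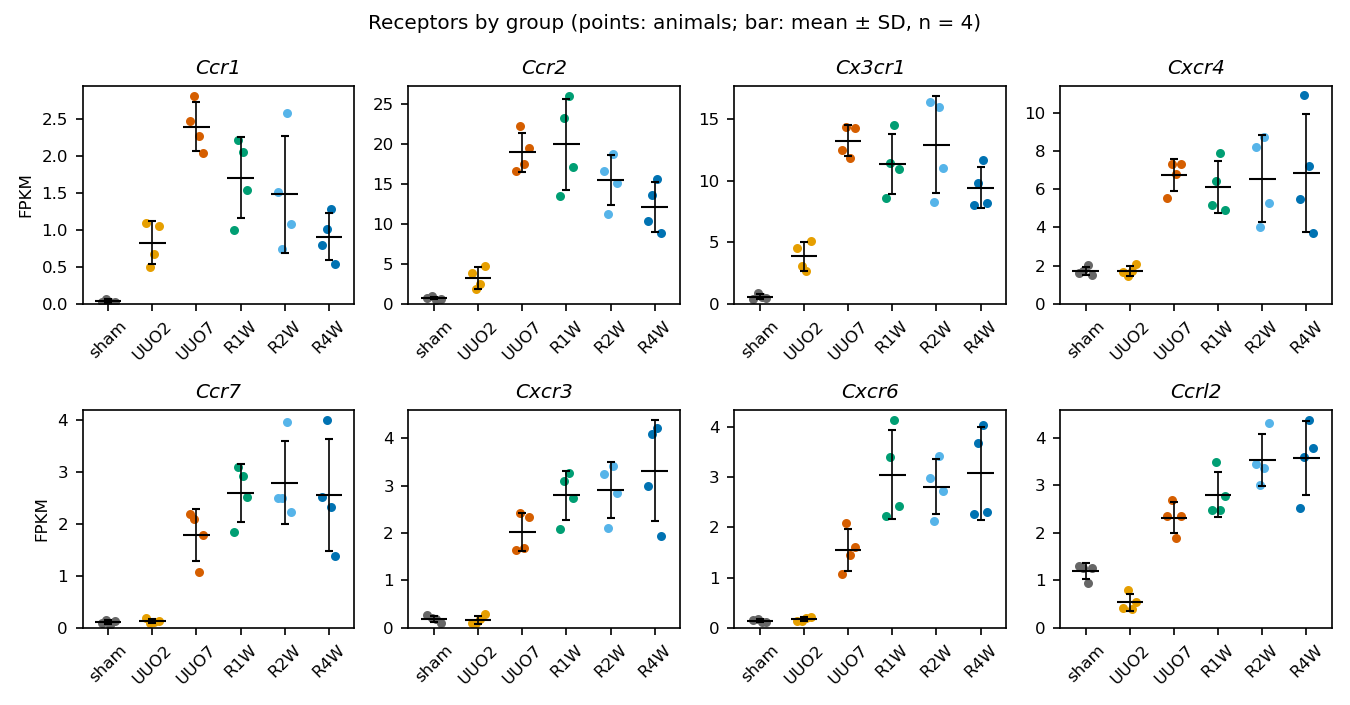
FPKM of 8 receptor genes by group, 1 point per animal, with the mean and SD (n = 4). Ccr1 and Ccr2 are highest in UUO7 or R1W and lower in R4W; Ccr7, Cxcr3, Cxcr6 and Ccrl2 are not lower in R4W than in UUO7.

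Receptors of T cells and dendritic cells were not called at 2 days. Cxcr3 read 0.26, 0.20, 0.18 and 0.10 FPKM in sham, 0.11, 0.10, 0.18 and 0.29 in UUO2, and 1.65, 2.42, 1.69 and 2.33 in UUO7. In R1W Cxcr3 read 2.09, 3.10, 3.26 and 2.75 FPKM, in R2W 3.25, 2.10, 3.42 and 2.84, and in R4W 3.00, 4.10, 4.22 and 1.94. For Cxcr3, the receptor of CXCL9 and CXCL10, sham and UUO2 overlapped and all later libraries lay above them. Cxcr6 read 0.16, 0.18, 0.11 and 0.12 FPKM in sham, 0.14, 0.14, 0.19 and 0.21 in UUO2, and 1.07, 2.08, 1.45 and 1.61 in UUO7. In R1W Cxcr6 read 2.23, 3.40, 4.14 and 2.43 FPKM, in R2W 2.99, 2.12, 3.42 and 2.72, and in R4W 2.27, 3.69, 4.04 and 2.31. Cxcr6, the CXCL16 receptor of tissue-resident T and natural killer T cells, had every R1W, R2W and R4W library above every UUO7 library. Ccr7 read 0.10, 0.14, 0.06 and 0.13 FPKM in sham, 0.18, 0.09, 0.11 and 0.12 in UUO2, and 2.18, 2.09, 1.08 and 1.79 in UUO7. In R1W Ccr7 read 1.84, 3.10, 2.91 and 2.52 FPKM, in R2W 2.50, 2.49, 3.96 and 2.22, and in R4W 2.52, 3.99, 2.33 and 1.38. Ccr7, which answers CCL19 and CCL21, was 1.31 ± 0.18 above sham in UUO7 (limma adjusted p = 1.06e-06). Cxcr3 and Cxcr6 were 1.34 ± 0.16 and 1.15 ± 0.16 above sham in UUO7 (limma adjusted p = 1.16e-07 and 1.25e-06).

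Against UUO7, Cxcr6 was higher by 0.65 ± 0.16 in R1W and 0.66 ± 0.16 in R4W (limma adjusted p = 0.0101 and 0.00193), and Cxcr3 by 0.49 ± 0.16 in R4W (limma adjusted p = 0.0141). The Cxcr3 call was lost without R4W replicate 2 (adjusted p = 0.0555), R4W replicate 3 (0.06), with R4W replicate 2 placed in R2W (0.0635), in a fit on the 2 groups (0.06), and without the 3 libraries high in adipose markers (0.37, adjusted p = 0.138); the Cxcr6 call was kept in each. Ccr7 was not called (limma adjusted p = 0.144), except without R4W replicate 4 (0.50, adjusted p = 0.0232). Of 6 T cell markers 5 were called higher in R4W than in UUO7 and 0 lower, beside 17.6% and 30.8% of all genes. The part of T cell numbers in these receptor values was not tested. In R4W the ligand gene Cxcl16 was below its UUO7 level and the receptor gene Cxcr6 above it.

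Cxcr4 read 1.59, 1.70, 2.02 and 1.53 FPKM in sham, 1.66, 1.44, 1.73 and 2.09 in UUO2, and 5.55, 7.31, 6.80 and 7.30 in UUO7. In R1W Cxcr4 read 5.18, 6.44, 7.88 and 4.91 FPKM, in R2W 8.19, 4.03, 8.74 and 5.27, and in R4W 5.48, 10.9, 7.22 and 3.68. Cxcr4, the CXCL12 receptor of most leukocytes, was 1.51 ± 0.22 above sham in UUO7 (limma adjusted p = 2.86e-06), with no overlap, and its reversal libraries spread on both sides of UUO7. Cmklr1 read 0.47, 0.86, 0.55 and 0.48 FPKM in sham, 0.70, 0.68, 0.58 and 1.11 in UUO2, and 3.56, 3.89, 3.47 and 4.02 in UUO7. In R1W Cmklr1 read 3.04, 3.78, 2.82 and 2.57 FPKM, in R2W 4.77, 2.86, 4.38 and 3.24, and in R4W 4.35, 4.64, 4.72 and 3.08. Cmklr1, the chemerin receptor of macrophages and natural killer cells, rose by 1.58 ± 0.14 in UUO7 (limma adjusted p = 2.07e-09) and was not called in R4W against UUO7 (limma adjusted p = 0.473). Its R4W value against R1W, 0.35 ± 0.14 (limma adjusted p = 0.0704), was called with rescaling (0.40, adjusted p = 0.0258), with a pseudocount of 10 (0.0419) and without R1W replicate 2 (0.0377) or R4W replicate 4 (0.0353). Chemerin itself (Rarres2) had means of 58.5 ± 12.6 FPKM in sham, 26.5 ± 5.58 in UUO2 and 112 ± 10.7 in UUO7, with a difference of -1.11 ± 0.19 between UUO2 and sham (limma adjusted p = 6.76e-05).

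The atypical receptors bind ligands without G protein signalling. Ackr3 read 12.5, 15.7, 17.4 and 13.9 FPKM in sham, 25.3, 18.4, 25.9 and 24.1 in UUO2, and 25.5, 24.4, 26.0 and 23.6 in UUO7. In R1W Ackr3 read 19.7, 25.8, 21.1 and 20.9 FPKM, in R2W 22.1, 18.3, 19.2 and 17.2, and in R4W 22.8, 22.1, 18.0 and 19.4. Ackr3, which scavenges CXCL12, was above sham in every UUO2 and UUO7 library, by 0.62 ± 0.11 and 0.71 ± 0.11 (limma adjusted p = 0.000135 and 7.58e-06). Its R1W, R2W and R4W calls against sham ended with rescaling (0.10, -0.02 and 0.09), and in R2W the authors' deposited table gives -0.02 beside 0.35 ± 0.11 here. UUO7 against UUO2 was 0.10 ± 0.11 (limma adjusted p = 0.471), -0.24 with rescaling (adjusted p = 0.0459), -0.01 without UUO2 replicate 2, and -0.27 in the authors' deposited table (adjusted p = 0.0568). Ccrl2 read 1.30, 1.25, 0.94 and 1.27 FPKM in sham, 0.42, 0.79, 0.39 and 0.55 in UUO2, and 2.35, 2.70, 1.89 and 2.35 in UUO7. In R1W Ccrl2 read 2.48, 3.50, 2.48 and 2.77 FPKM, in R2W 3.45, 3.02, 3.36 and 4.32, and in R4W 2.52, 3.60, 4.39 and 3.78. Ccrl2, which presents chemerin to cells bearing its receptor, was below every sham library in UUO2 and above in every later group. The differences from sham were -0.51 ± 0.13 in UUO2, 0.60 ± 0.13 in UUO7 and 1.05 ± 0.13 in R4W (limma adjusted p = 0.00206, 0.00021 and 6.29e-07). R4W was also 0.45 ± 0.13 above UUO7 (limma adjusted p = 0.0063), with overlap. Rarres2, Ccrl2, Ccl21a and Cxcl12 were each called lower than sham in UUO2 and higher than sham in R4W.

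Other genes of chemokine signalling, 33 with a row from 38 listed names that include aliases of the same gene, were counted in the same way. Against sham 17 of the 33 were higher and 2 lower in UUO2, 51.5% and 6.06% beside 32.3% and 17.0% of all genes. In UUO7 31 were higher and 0 lower, 93.9% beside 60.1% of all genes higher and 17.8% lower. The medians were 0.39 and 1.35, beside 0.09 and 0.42 over all genes. With rescaling the counts were 16 and 3 in UUO2, beside 25.3% and 25.5% of all genes, and 27 and 0 in UUO7, beside 36.5% in each direction. Against UUO7, R4W was higher for 2 and lower for 8, 6.06% and 24.2% of the 33, which lie below the 17.6% and 30.8% of all genes. With rescaling the counts were 5 and 7, beside 25.1% and 23.2% of all genes. The 2 higher were Rgs1 and Rgs2, which limit G protein signalling, Rgs1 by 1.33 ± 0.27 (limma adjusted p = 0.000522). The 8 lower were the NF-kB genes Nfkb1, Rela and Nfkbia, the G protein subunit gene Gnai2, the receptor kinase gene Grk5, the cytokine genes Mif and Pf4, and the interferon regulator Irf1, whose call ended with rescaling. Nfkbia, whose product inhibits NF-kB and which NF-kB induces, had means of 17.6 ± 4.20 FPKM in sham, 58.1 ± 15.6 in UUO2, 81.1 ± 8.08 in UUO7 and 53.0 ± 12.7 in R4W. It was 1.66 ± 0.19 above sham in UUO2 and -0.63 ± 0.19 in R4W against UUO7 (limma adjusted p = 6.58e-07 and 0.0102). The platelet chemokine Pf4 had 0.990 ± 0.414, 24.1 ± 1.70 and 13.6 ± 4.33 FPKM in sham, UUO7 and R4W, and the T cell chemokine Xcl1 0.385 ± 0.205, 2.56 ± 0.926 and 3.23 ± 1.24 FPKM.

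The level reached 4 weeks after reversal can be put on each gene's own scale, with its sham mean as 0% and its UUO7 mean as 100%. Of the 35 genes higher in UUO7, 10 were below 50% in R4W, 11 between 50 and 100%, and 14 above 100%, with a median of 79.0%. The lowest were Cxcl17 at 11.4% ± 1.95, Cxcl1 at 22.5% ± 11.6, Ccl27a at 22.5% ± 18.2 and Cxcl2 at 27.7% ± 13.8 (SD, n = 4). Ccr1, Cxcl16, Cxcl10, Ccl2, Cx3cl1 and Cxcl14 followed, from 36.9% ± 13.4 to 46.8% ± 3.41. At the other end were Ccl8 at 305% ± 165, Ccl21a at 292% ± 145, Ccrl2 at 210% ± 68.8, Cxcr6 at 208% ± 65.3, Cxcl9 at 206% ± 85.8 and Ccl19 at 180% ± 48.0. With rescaling Ccrl2 stood at 334%, Ccl21a at 415%, Ccl27a at -22.6% and Ackr3 at 33.7% in R4W, the last from 56.9%. Without R4W replicate 1 Ccl27a stood at 14.2%. On the same scale UUO2 was highest for Ccl20 at 172% ± 103 (219% with rescaling), followed by Cxcl10 at 103% ± 48.7, Cxcl1 at 98.4% ± 81.6, Ackr3 at 85.3% ± 34.5 (222% with rescaling), Cxcl2 at 50.7% ± 30.2 and Cxcl17 at 48.3% ± 13.1 (SD, n = 4). With rescaling Ackr3 came first. Without UUO2 replicate 1 Cxcl1 stood at 59.9%. The lowest were Ccl21a at -58.8% ± 8.45 and Ccrl2 at -57.6% ± 16.1, which with rescaling stood at -119% and -149%, then Ccl8 at -3.82% ± 0.434. These percentages share the sham and UUO7 means and describe the genes without a test.

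**Figure D4:**
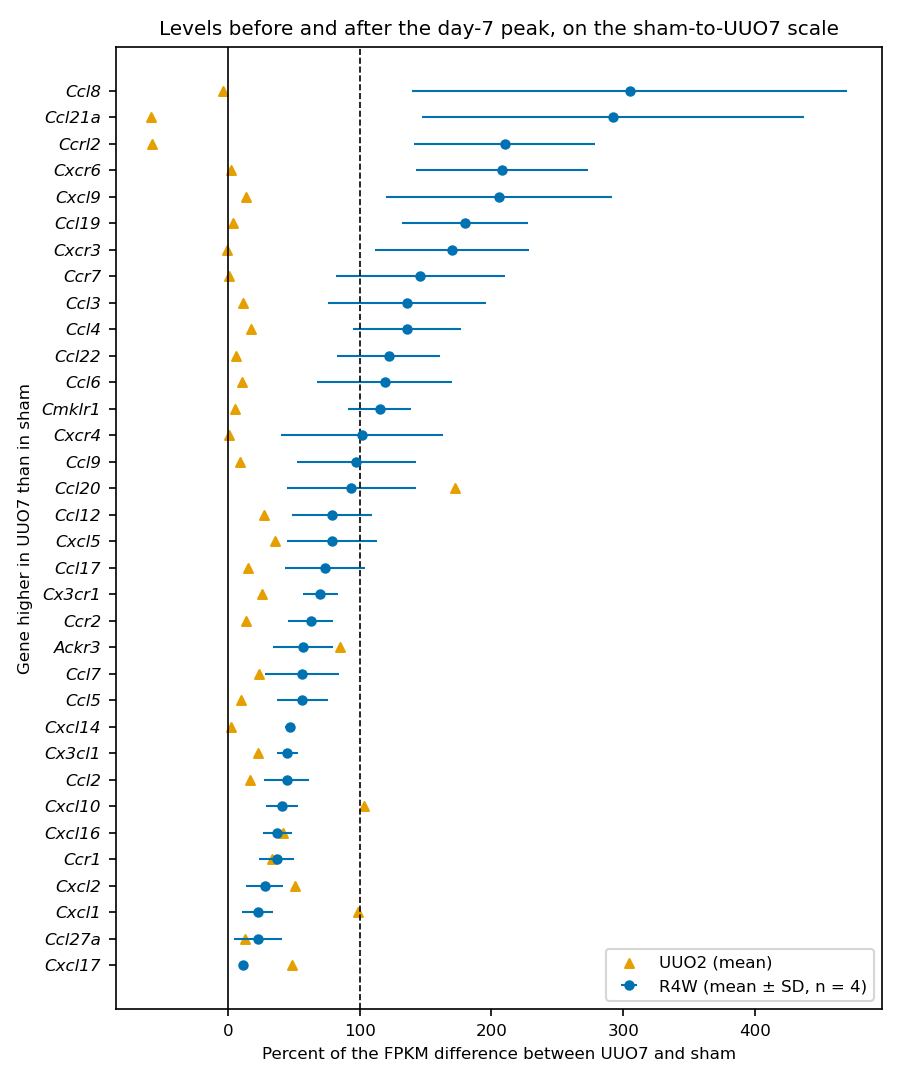
Group level of 34 of the 35 genes higher in UUO7, as a percent of the FPKM difference between the UUO7 mean (100, dashed line) and the sham mean (0, solid line). Blue points are the R4W mean ± SD (n = 4), from Cxcl17 at 11.4% to Ccl8 at 305%; orange triangles are the UUO2 mean.

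The 13 genes lower in R4W than in UUO7 included neutrophil and monocyte ligands (Cxcl1, Cxcl2, Ccl2, Ccl5), Cxcl10, the epithelial ligands Cxcl16, Cxcl17, Cxcl14, Cx3cl1 and Ccl27a, and the receptors Ccr1 and Ccr2. The 8 higher ones comprised the lymphoid ligands Ccl19 and Ccl21a, Cxcl12, Cxcl9, Ccl8, the lymphocyte receptors Cxcr3 and Cxcr6, and Ccrl2. With the 3 libraries high in adipose markers left out, an alternative chosen after seeing the data, 3 were higher (Cxcl12, Ccrl2 and Cxcr6) and 14 lower, beside 13.1% and 25.4% of all genes. With R4W replicate 2 placed in R2W, as its treatment label says, there were 5 higher and 13 lower, beside 16.0% and 30.2% of all genes, and Ccl8 (adjusted p = 0.0695), Ccl19 (0.0568) and Cxcr3 (0.0635) lost the call. Of the 21 calls 14 were between groups without overlap, while 43.5% of all genes, or 90.0% of the genes called, had none.

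**Figure D5:**
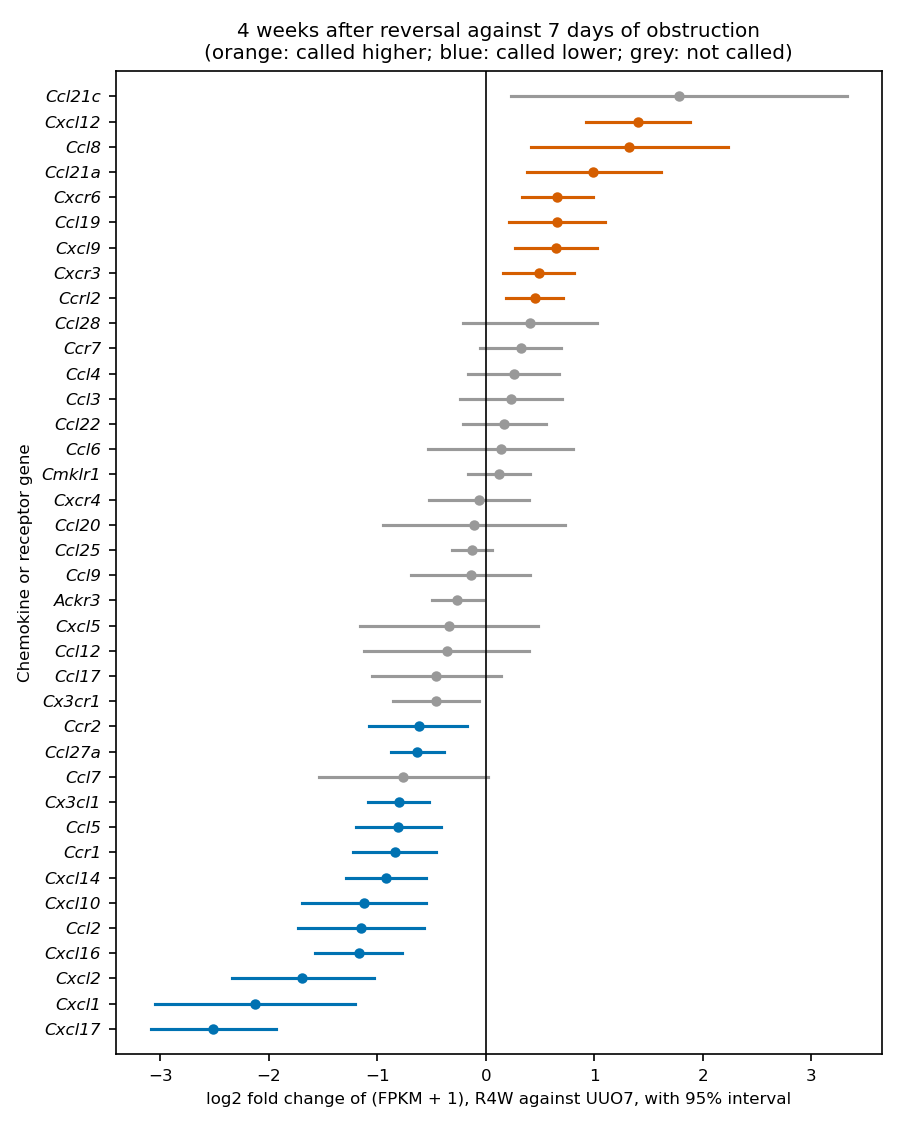
Difference in log2(FPKM + 1) between R4W and UUO7 for 38 of the 39 genes with its 95% interval from limma; orange and blue mark genes called higher and lower, grey those not called. The estimates run from -2.51 for Cxcl17 to 1.78 for Ccl21c, which was not called in this fit and has a wide interval.

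The rank of the genes by level changed with the groups. In sham the 5 highest means were those of Cxcl12, Ccl27a, Cxcl16, Cx3cl1 and Ackr3, with the last 4 between 14.9 ± 2.14 and 24.1 ± 3.03 FPKM, and Cxcl16, Cx3cl1 and Ccl27a overlapping. In UUO7 they were Cxcl16, Cx3cl1, Cxcl14, Cxcl1 and Cxcl10, of which the last 3 overlapped. In R4W the order was Cxcl12, Cxcl16, Cx3cl1, Ccl6 and Ccl21a, and Cxcl12 and Cxcl16 overlapped. The group means of the 39 genes summed to 170 FPKM in sham, 382 in UUO2, 897 in UUO7, and after reversal to 844, 718 and 697 at 1, 2 and 4 weeks.

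The authors' deposited table holds its own log2 fold changes. Of 351 values, 39 genes in 9 comparisons, 18 had the opposite sign to those computed here. Of these 1 was called here (Ackr3, R2W against sham), and 2 had an adjusted p under 0.05 in the authors' deposited table (Cxcl12, UUO7 against sham, and Ccl25, R2W against sham). In UUO7 against sham the authors' deposited table counts 34 higher and 3 lower among the 39, beside 35.8% and 37.9% of all genes with an adjusted p there.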

How the data were processed

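RNA of 24 mouse kidneys, 4 in each of 6 groups by sample title, was sequenced after polyA selection. The authors deposited 1 table of values whose unit is not given in the sources used here. The deposited values were taken as FPKM, made by the authors by steps not given in the sources used here, because columns summed to 717415 to 830179 (ratio 1.16) and evened out further when multiplied by transcript length (ratio 1.08). RSEM, Bowtie2, FastQC, DESeq2 and the mm10 build are named per the submitters' processing notes, without role or version. The deposited table holds genes with a mean of at least 1 over the 24 libraries, as tested on the values. It also holds the authors' log2 fold changes and adjusted p-values, per the file headers, whose direction was read from the sample columns.

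The log2(FPKM + 1) values (pseudocount 1) of all 24 libraries entered 1 linear model, moderated with an intensity trend (limma 3.58.1 under R 4.3.3), with Benjamini-Hochberg adjustment over 14785 genes. A gene was called at an adjusted p under 0.05. The test was also tested on simulated data. Tables were made with Python 3.11.15 and pandas 2.3.3. Rows were matched by name; all 39 have the same coordinates in GENCODE M21. Any of the 39 genes could be named; values of all libraries are given for the genes listed by role and for further genes called with a log2 change of at least 1. One of the 39 genes is counted in the totals and not reported here by name or drawn. The authors' fold change is given beside a printed one of the opposite sign. Alternatives were median-ratio rescaling, pseudocounts of 0.1 and 10, a mean of at least 5 FPKM, a minimum log2 change of 1 in either direction, 2-group fits, leaving out the UUO2 group, a replicate block, R4W replicate 2 placed in R2W, and the removal of each library; the removal of 3 libraries high in adipose markers was chosen after seeing the data. The genes, lists and tests were chosen with earlier results of these data known. No count model was used because the table holds no counts. Each library is 1 animal. The p-values rest on a spread between animals that is pooled over the 6 groups and moderated across genes. It can differ from the spread within the 2 groups compared. Across genes, Pearson's r within groups had a median of 0.978 and a minimum of 0.962, and 0 columns were identical.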

Additional observations from a re-analysis of the deposited data

Results flagged for a closer look

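In 11 of 234 sets of 4 libraries (39 genes in 6 groups) 1 library stood apart from the other 3 by a gap beyond Dixon's 95% critical value; chance gives about 1 in 20, or 11.7. They came from 8 libraries. Sham replicate 2 held 3 of them: Ccl8 read 2.64 FPKM (others 0 to 0.17), Cx3cl1 25.87 (others 18.47 to 19.41) and Cxcl10 5.16 (others 3.13 to 3.45). Sham replicate 2 is also the sham library with adipose (28.8 FPKM) and urothelial (30.5 FPKM) marker sums above the other 3. R2W replicate 3 was high for Cxcl1, 24.09 FPKM (others 9.96 to 11.09), and for Ccr7, 3.96 (others 2.22 to 2.50). The rest were Ccl7 in UUO7 replicate 3 (17.02 FPKM, others 8.11 to 9.02), Ccl9 in R1W replicate 2 (29.71, others 16.02 to 17.98), Ccl6 in UUO7 replicate 1 (28.56, others 38.67 to 40.33), Ccl19 in UUO2 replicate 3 (1.27, others 2.97 to 3.19), Ccrl2 in sham replicate 3 (0.94, others 1.25 to 1.30) and Cxcl17 in R4W replicate 4 (1.48, others 2.03 to 2.14).

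Ccl21a and Ccrl2 lay below every sham library in UUO2 and above every sham library in UUO7, R1W, R2W and R4W. UUO7 exceeded UUO2 by 2.74 on the log2 scale for Ccl21a and by 1.11 for Ccrl2 (limma adjusted p = 1.04e-07 and 2.08e-07). Both genes were picked because UUO2 lay below sham and UUO7 above it. The direction was thus given in advance, and these p-values add no support. UUO2 libraries had weaker low-value steps than the others and may be a separate library batch, so time and library batch cannot be told apart in this contrast.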

How the results depend on the processing

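Counts below are members called, of 39. A mean of at least 5 FPKM left 25 of the 39 genes to test and gave 22 calls in UUO7 against sham, 24 in R1W, 23 in R2W and 23 in R4W against sham, 22 between UUO7 and UUO2, and 3 for R1W against UUO7, beside 80.6%, 76.3%, 70.8%, 67.7%, 68.3% and 18.5% of all genes tested; fewer genes were tested. A minimum log2 change of 1 in either direction gave 1 call in R1W against UUO7, 8 in R4W against UUO7 and 1 in R4W against R1W. R1W against UUO7 went from 5 to 8 with a pseudocount of 10, 11 in a fit on the 2 groups and 8 without UUO2, beside 16.7%, 14.3% and 17.6% of all genes; R4W against R1W, with 7, fell to 1 in the 2-group fit and to 3 without the libraries high in adipose markers; the cause was not tested. Leaving out each library gave 25 to 27 calls in UUO2, 36 to 37 in UUO7, 38 to 38 in R1W, 37 to 37 in R2W and 36 to 38 in R4W against sham, 32 to 34 between UUO7 and UUO2, 3 to 6 for R1W against UUO7 (3 without UUO7 replicate 3, UUO7 replicate 4 or R1W replicate 4), 18 to 22 in R4W against UUO7 and 1 to 9 in R4W against R1W. The shares of all genes called in these fits ran from 42.5% to 52.7%, 74.7% to 77.5%, 70.3% to 73.6%, 63.3% to 70.6%, 61.2% to 66.0%, 62.6% to 65.7%, 7.55% to 17.1%, 40.7% to 45.6% and 4.92% to 23.6%, in the same order. Reversed signs came with rescaling for Ackr3 in R2W against sham (-0.02), Ackr3 and Ccl25 in UUO7 against UUO2 (-0.24 and -0.05), Ccl25 in R2W against sham (-0.34), Ccl27a in R4W against sham (-0.12), Cxcl10 in UUO7 against UUO2 (-0.27) and Cxcl12 in UUO7 against sham (-0.36). They came without 1 library for Ccl21c in UUO7 against sham (range -0.16 to 1.46, lowest without sham replicate 2, and -0.16 without the libraries high in adipose markers), Ccl25 in UUO7 against sham (-0.09 to 0.06, highest without UUO7 replicate 2), Cxcl1 in UUO7 against UUO2 (-0.13 to 0.88, lowest without UUO2 replicate 2) and Cxcl10 (-0.29 to 0.29, lowest without UUO2 replicate 2, and -0.01 without UUO7 replicate 3). Differences that were not called also changed sign without 1 library: Ackr3 in UUO7 against UUO2 (-0.01 to 0.15), Ccl25 in R2W against sham (-0.03 to 0.04), Ccl8 in UUO2 against sham (-0.48 to 0.15), and Ccl6 (-0.05 to 0.44) and Ccl9 (-0.33 to 0.13) in R4W against UUO7. Without the libraries high in adipose markers Ccl25, Ccl8 and Ccl6 read -0.03, 0.15 and -0.08 there, and with R4W replicate 2 placed in R2W Ccl6 read -0.03. Replicate numbers recur across groups, but mean correlations of same-numbered deviations ran from -0.174 to 0.148 and the animals differ, so the numbers do not pair the samples. With a replicate block the counts were 25, 36, 38, 37, 37, 34, 5, 21 and 6 in the order above. The shares of all genes were 48.2%, 77.3%, 73.6%, 68.6%, 65.7%, 65.8%, 13.2%, 46.8% and 17.4%. The call lost was Ccr2 in R4W against R1W (limma adjusted p = 0.0537). Depth limits the lowest values: Ccr1, at 0.02 to 0.07 FPKM in sham, lies near the 0.033 to 0.047 FPKM that 1 fragment on a transcript of 1 kb is worth.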
